A study of Rattus norvegicus with 24 samples.

Results

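Connexins are the proteins of gap junctions, the channels through which neighbouring cells exchange ions, metabolites and second messengers. The connexin genes measured here are 7 genes of the rat, Gja1, Gja4, Gja5, Gjb1, Gjb2, Gjb6 and Gjd2. They were found as the probes whose platform symbol is one of these names, which gave 7 probes, 1 for each gene, among 13337 named genes and 22523 probes. The genes were chosen with their values in these data known, so their levels and differences are descriptions and carry no test.

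Connexin subunits assemble into a hemichannel, or connexon, and hemichannels of adjoining cells dock to make the channel. In rodent brain, astrocytes are coupled mainly through Cx43 (Gja1) and Cx30 (Gjb6). Cx26 (Gjb2) is made by meningeal cells and by some astrocytes, Cx32 (Gjb1) by oligodendrocytes, Cx37 (Gja4) and Cx40 (Gja5) by arterial endothelium, and Cx36 (Gjd2) by neurons, where it forms electrical synapses.

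The tissue was cortex of male Wistar rats weighing 250 to 300 g, anesthetized with ketamine and xylazine, and RNA was hybridised to 24 Illumina RatRef-12 arrays. Sham animals had the surgery without occlusion. In vehicle animals a middle cerebral artery was permanently occluded, as in an ischemic stroke, and 80% dimethyl sulfoxide (DMSO) was injected into a cerebral ventricle. Treatment animals had the occlusion and 30 mM ZM447439, an inhibitor of Aurora kinases, in 80% DMSO. Each of these groups was sampled at 8 h and at 24 h, with 4 arrays per group and 6 groups. Vehicle thus differs from sham by both occlusion and DMSO, since no injection is given for sham. The occluded artery is labelled left and the tissue right cortex, which the sources used here do not settle. Whether each array is a separate animal is not given either.

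The median intensity of an array lay between 65.3 and 115, and 2 arrays of every group lay on each of 2 slides. Within a time point the 12 columns held 1 probe profile multiplied by 1 factor per array. The largest departure of a connexin probe from that profile was 1.96e-07 log2 at 8 h and 1.52e-07 log2 at 24 h. No connexin could therefore be compared between sham, vehicle and treatment, and the data give 1 level per gene at 8 h and 1 at 24 h. The origin of each profile is not stated in any source at hand, so time, injury and treatment cannot be told apart in it. A level is the intensity divided by the array median. A level of 1 is that of the median probe, and the median lies close to the dimmest probes, the 25th percentile being 0.812 at 8 h and 0.816 at 24 h. Levels depend on the probe as well as on the transcript, so they are compared between profiles of a gene and not between genes. The summed levels of gene lists given below add probes of unlike brightness, so they follow mainly the brightest probes.

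Of 12 neuron markers 11 stood at 1.5 times the median or more in both profiles, and the nuclear marker gene Rbfox3 was near the median at 1.24 and 1.16. The synaptic vesicle gene Syt1 had levels of 149 and 133 in the 8 h and 24 h profiles, and the glutamatergic marker Slc17a7 at 10.6 and 8.39 times. The choroid plexus carrier gene Ttr stood at 5.10 and 30.1 times.

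Gjb2 and Gjb6 are immediate neighbours on rat chromosome 15 in the RefSeq annotation of GRCr8, and their differences ran in opposite directions. The bases upstream of their annotated starts are therefore shown, with those of Gja1, the other main astrocyte connexin. The sequences are from RefSeq, GRCr8, written from 5′ to 3′ on the strand of the gene, and end at the base before the start. The Gjb2 window is chr15:35381954-35382203 on the minus strand, the Gjb6 window chr15:35410139-35410388 on the minus strand, and the Gja1 window chr20:36302314-36302563 on the plus strand. Capitals mark matches, on either strand, to the TATA-like hexamer TTAAAA, the TATA box TATAAA, the GC box GGGCGG bound by Sp factors, or the AP-1 site TGANTCA.
Gjb2: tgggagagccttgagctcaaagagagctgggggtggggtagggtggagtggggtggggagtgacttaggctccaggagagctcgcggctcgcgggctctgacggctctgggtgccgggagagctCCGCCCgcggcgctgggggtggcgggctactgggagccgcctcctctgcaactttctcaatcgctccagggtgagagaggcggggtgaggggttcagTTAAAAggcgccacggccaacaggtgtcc
Gjb6: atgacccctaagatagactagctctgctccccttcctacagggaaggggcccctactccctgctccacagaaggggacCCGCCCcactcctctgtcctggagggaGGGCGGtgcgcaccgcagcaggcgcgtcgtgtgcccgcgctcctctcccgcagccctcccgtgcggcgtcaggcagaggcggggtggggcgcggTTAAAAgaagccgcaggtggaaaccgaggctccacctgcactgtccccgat
Gja1: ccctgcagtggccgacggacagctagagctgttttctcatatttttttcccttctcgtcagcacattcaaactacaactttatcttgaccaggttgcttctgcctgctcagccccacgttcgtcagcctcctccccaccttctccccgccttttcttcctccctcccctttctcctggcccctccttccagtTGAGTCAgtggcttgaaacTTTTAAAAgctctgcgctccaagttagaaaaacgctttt

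In the Gjb2 window TTAAAA began 29 bases before the start, and 1 GC box lay 126 bases before it, on the other strand. In the Gjb6 window TTAAAA began 51 bases before the start, with GC boxes at 172 bases (other strand) and 145 bases. RefSeq lists a second start for Gjb6, whose window held 1 GC box and no TTAAAA. The Gja1 window had TTTTAAAA, which holds overlapping matches to TTAAAA on both strands, and the AP-1 match TGAGTCA began 58 bases before the start. TATAAA was found in none of these windows. Over 33469 windows of the same length in RefSeq, 19% held TTAAAA, 12.9% TATAAA, 30.5% a GC box and 6.34% an AP-1 match. The motifs were picked after the sequences were seen. Gjb2 and Gjb6, whose differences were opposite, thus both had TTAAAA and a GC box in this window. Gja5 and Gjd2, which did not pass 1.5-fold, had both motifs in their windows too, so the pair is not particular to Gjb2 and Gjb6. A match is a stretch of letters and says nothing of binding.

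Gjb2 had the largest difference of the connexins. On the deposited intensity scale, sham arrays at 8 h read 269, 250, 271 and 239 for replicates 1 to 4. Vehicle arrays at 8 h read 289, 278, 254 and 247. Treatment arrays at 8 h read 258, 289, 219 and 210.
The sham, vehicle and treatment ranges overlapped at 8 h, as they must for 1 profile times an array factor. At 24 h sham arrays read 519, 613, 553 and 525. Vehicle arrays at 24 h read 762, 777, 591 and 560. Treatment arrays at 24 h read 598, 682, 599 and 586.
The 24 h arrays ran from 519 to 777 and the 8 h arrays from 210 to 289, without overlap. It is 1 ratio between 2 profiles with the array factors on top, and not agreement between replicates or between sham, vehicle and treatment. How many of all probes had separate ranges was not counted. After division by the array median, the level of Gjb2 was 3.21 at 8 h and 6.76 at 24 h. That is 2.10-fold, or 1.07 on the log2 scale, and ranked 23 from the top among 22523 probes. It stayed between 0.97 and 1.27 under 9 other ways of processing.

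Gjb6 lay on the opposite side. On the deposited scale sham arrays at 8 h read 3986, 3715, 4019 and 3553. Vehicle arrays at 8 h read 4295, 4129, 3772 and 3662, and treatment arrays 3824, 4286, 3248 and 3114.
Slide 2 held the lowest treatment arrays at 8 h. At 24 h sham arrays read 2315, 2736, 2469 and 2342. Vehicle arrays at 24 h read 3401, 3464, 2634 and 2496, and treatment arrays 2667, 3040, 2670 and 2613.
The deposited ranges of the 2 times overlapped for Gjb6. The vehicle arrays of slide 1 at 24 h lay among the 8 h arrays, and 2 treatment arrays at 8 h lay inside the 24 h range. With the array factor removed the level of Gjb6 was 47.7 at 8 h against 30.1 at 24 h, or 1.58-fold higher at 8 h. The log2 difference of -0.66 ranked 81 from the bottom. It was past 1.5-fold under 8 of the 9 other ways of processing, and -0.47 without scaling, where the 24 h arrays were brighter as a whole and the median of all probes moved to 0.18. In cortex taken as bulk tissue, fewer cells of a type and less RNA per cell cannot be told apart.

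**Figure D1:**
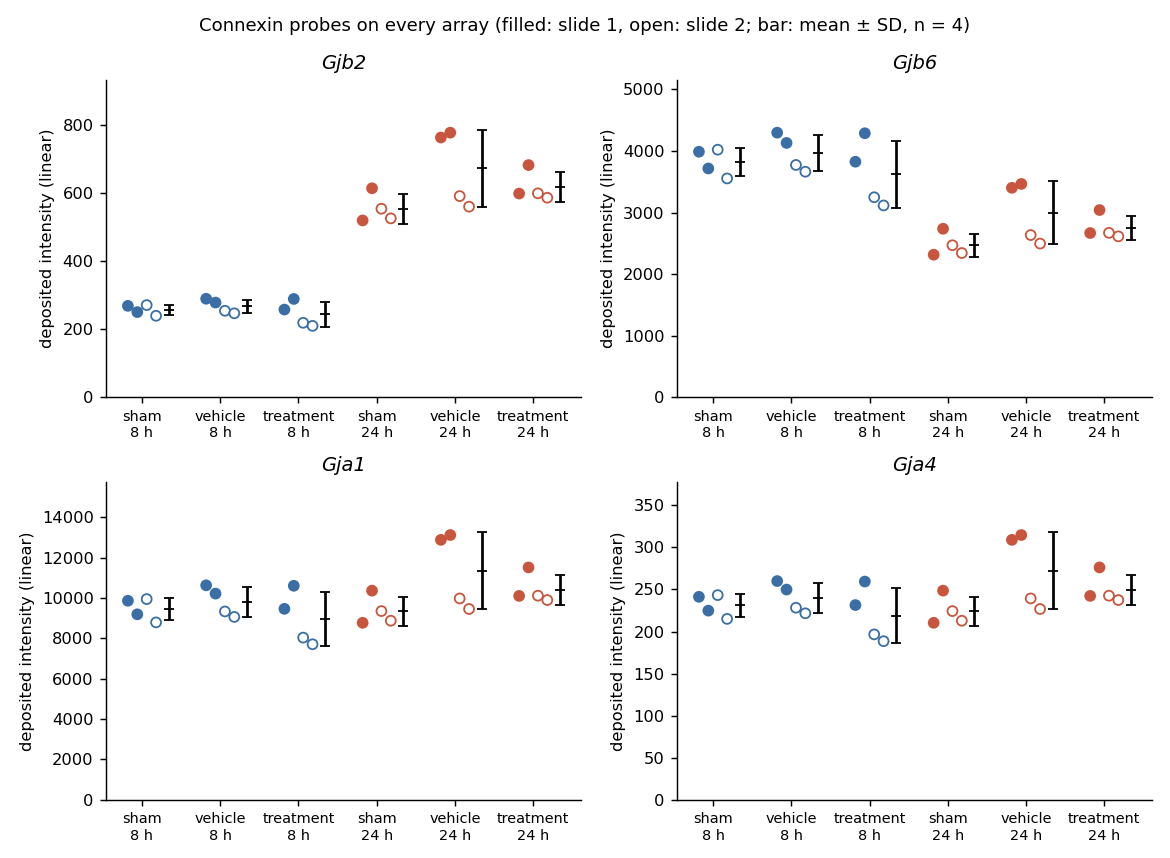
Deposited intensity (linear, y axis from 0) of the Gjb2, Gjb6, Gja1 and Gja4 probes on each of 24 arrays, by group (x axis), with filled points for slide 1, open points for slide 2, blue for 8 h, red for 24 h, and the mean ± SD of the 4 arrays in black. Gjb2 is separated by time, which is 1 ratio between 2 profiles and not agreement between groups. Gjb6 is lower at 24 h with 2 vehicle arrays at 3401 and 3464. The pattern over arrays of a time point is the same in every panel because it is the array factor.

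Gjb2 and Gjb6 were therefore 1.73 log2 apart in their differences, or 3.33-fold. They were the connexins past 1.5-fold, 1 higher and 1 lower of 7. Among all probes 0.617% were higher by at least that fold at 24 h and 0.497% were lower, in all 1.11%. The members were chosen on this contrast, so nothing is read from these shares. The split of all probes was 139 higher and 112 lower here, 174 and 87 with quantile normalization, and 195 and 78 with cyclic loess. It was 184 and 88 with the 75th percentile, 177 and 91 with the column mean, and 186 and 89 with normexp followed by quantile normalization. Among probes above the median it was 183 and 88, and without scaling 368 and 50. It stayed closer to even, at 98 and 88, with a pseudocount, and at 813 and 785 with the 1st percentile subtracted. Of the 7 members, 4 stood at least 2 times above the median in both profiles, as did 6635 probes, of which 2.76% were past 1.5-fold.

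Gja1, the most abundant astrocyte connexin in rodent brain, barely differed between the profiles. Its deposited intensity ran from 7712 to 10636 at 8 h, with a median of 9404, and from 8776 to 13130 at 24 h, with a median of 10047. The ranges at 8 h and 24 h overlapped. With 1 profile per time point this follows from 1 ratio and the array factors, and says nothing of replicates. Its level was 118 and 114 times the median, a log2 difference of -0.05. The sign was not settled, since the other ways of processing gave -0.05 to 0.14. Of the astrocyte pair, Gjb6 thus differed by more than 1.5-fold with median scaling and Gja1 did not, and with no replicate error this contrast between them was not tested.

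Gja4, the endothelial Cx37 gene, was the remaining member above 1.5 times the median in both profiles. Its intensity ran from 189 to 260.0 at 8 h, with a median of 229.9, and from 210.4 to 315 at 24 h, with a median of 241. The ranges overlapped. Its level was 2.89 and 2.74 times the median, a log2 difference of -0.08 that lay between -0.10 and 0.11 elsewhere.

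Gja5, Gjb1 and Gjd2 were near the level of the median probe, and no detection calls accompany the values used, so whether these transcripts were measured above background is not known. Gja5, which makes arterial Cx40, had levels of 1.09 at 8 h and 1.03 at 24 h. Gjb1, the oligodendrocyte Cx32 gene, stood at 0.890 and 0.919. Gjd2, the Cx36 gene of electrical synapses, stood at 0.903 and 0.895. None of these 3 passed 1.5-fold under any of the other settings, and their deposited ranges at both times overlapped.

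**Figure D2:**
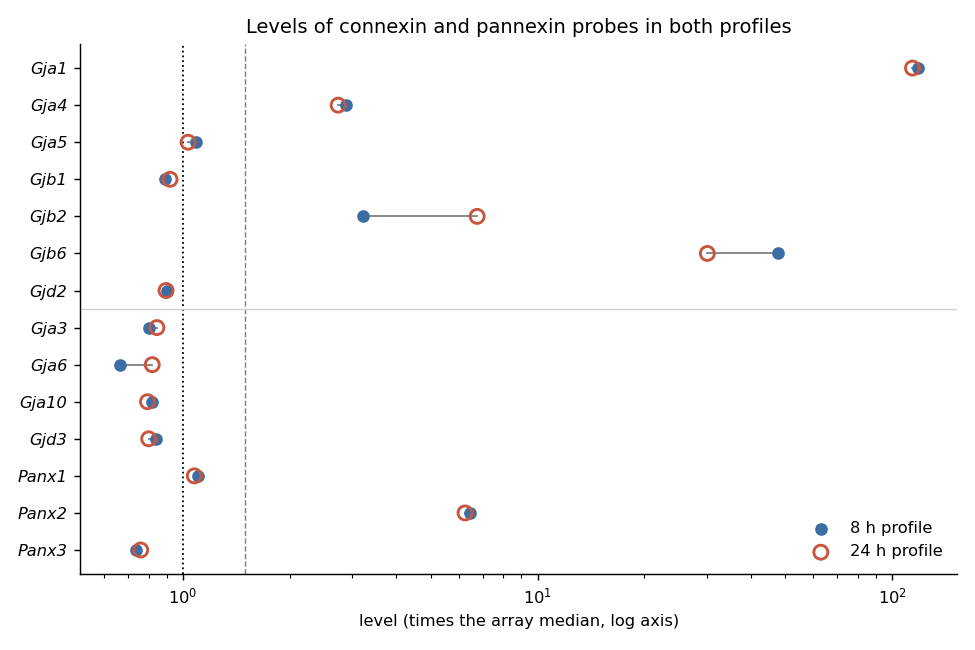
Level of each connexin and pannexin probe (times the array median, log axis) in the 8 h profile (filled blue) and the 24 h profile (open red), with the 7 members above the grey line; the dotted line is the median and the dashed line 1.5 times the median. Gjb2 moves right from 3.21 to 6.76, Gjb6 moves left from 47.7 to 30.1, and the other members' points nearly coincide.

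**Figure D3:**
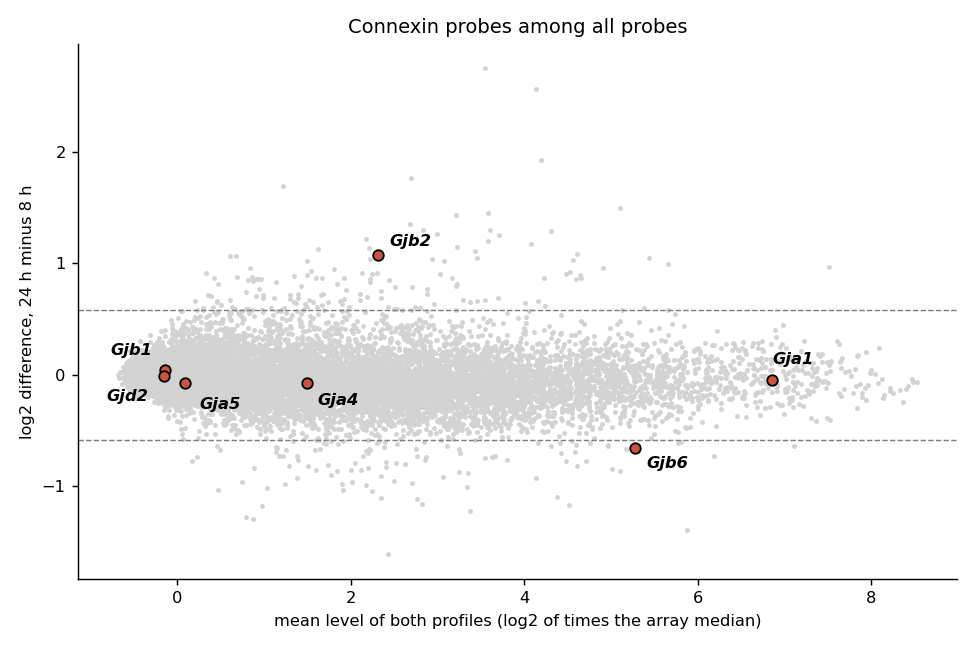
Log2 difference (24 h minus 8 h, y axis) against the log2 of the mean level (x axis) for all 22523 probes in grey, with the 7 connexins in red and dashed lines at 1.5-fold. Gjb2 at 1.07 and Gjb6 at -0.66 lie outside the dashed lines and the other 5 connexins lie near 0.

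The rest of the family was little represented. Of 13 other connexin genes listed, 4 had a named probe: Gja3, Gja6, Gja10 and Gjd3. The other 9 are not analysed here. All 4 were below the median of the array in both profiles. Gja3, a lens connexin gene, stood at 0.799 and 0.844, Gja10 at 0.818 and 0.794, and Gjd3 at 0.839 and 0.800.
Gja6 stood at 0.664 at 8 h, among the lowest 0.151% of probes, and at 0.818 at 24 h. Such values lie at the bottom of the scale, where a difference has little meaning. Pannexins form large-pore channels without docking to a partner cell. Panx1 stood at 1.101 and 1.08 times the median and Panx3 at 0.738 and 0.759. Panx2, the pannexin abundant in neurons, stood at 6.47 and 6.24, a log2 difference of -0.05. None of these 7 genes differed by 1.5-fold.

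Genes that anchor or regulate gap junctions showed no difference of 1.5-fold in the 15 of 20 that were measured, with 8 higher, 7 lower and a median log2 difference of 0.02. Over all 13337 named genes the median was -0.01, with 6013 (45.1%) above 0 and 7324 (54.9%) below, 0.907% at least 1.5-fold higher and 0.682% at least 1.5-fold lower. Among the 12 of these anchoring or regulating genes at 1.5 times the median or more in both profiles, the largest differences belonged to Prkcd, the protein kinase C delta gene, at -0.41, to Ccn3, whose product binds Cx43, at 0.23, and to the adherens junction gene Ctnnb1 at 0.16. The brightest probe, that of the adaptor gene Ywhaq, differed by -0.12. Tjp1, which encodes the Cx43 scaffold ZO-1 and is named here after its value was seen, stood at 14.6 and 15.9 times the median.

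Markers of the cells that hold these connexins were set beside them. Of 18 astrocyte markers 12 were measured, and they split into 6 higher and 6 lower with a median of -0.00. Gfap, the astrocyte intermediate filament gene, was the marker past 1.5-fold, at 124 and 241 times the median. The water channel gene Aqp4 differed by 0.37 and the growth factor receptor gene Fgfr3 by -0.39. The summed level of the list was 469 at 8 h and 569.9 at 24 h, and without Gfap it was 345 and 329. Gjb6, at -0.66, thus lay below all 12 measured astrocyte markers, of which Fgfr3 was the lowest. Gja1 lay near the middle of the list, and Gfap, at 0.96, was the highest.

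Of 16 meningeal fibroblast markers 14 were measured, 11 higher and 3 lower, with a median of 0.17. Igfbp2, which encodes an insulin-like growth factor binding protein, stood at 15.6 and 31.8 times the median, and the retinoic acid enzyme gene Aldh1a2 differed by 0.46. The growth factor gene Igf2 differed by -0.46, and the brightest marker, the prostaglandin D synthase gene Ptgds, by -0.30. The summed level was 346 at 8 h and 309 at 24 h, of which Ptgds alone made up 253 and 206. The fall in the sum thus follows Ptgds, while most markers of the list were higher. Gjb2, at 1.07, lay on the side of the 11 higher markers and above all 14. On that side too lay 6 of 12 measured astrocyte markers and 9 of 14 endothelial and mural markers. So did 7 of 8 microglia markers and 7 of 8 choroid plexus and ependyma markers. Of the measured markers, 11 astrocyte, 6 endothelial and mural, 4 microglia and 1 choroid plexus marker (Ttr) reached 1.5 times the median in both profiles. Which cells account for the Gjb2 difference was not tested.

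Of 20 endothelial and mural markers 14 were measured, 9 higher and 5 lower, with a median of 0.02 and summed levels of 52.6 and 59.1. Tagln, a smooth muscle gene, differed by 1.14, the von Willebrand factor gene Vwf by 0.45 and the receptor gene Tie1 by 0.31, with 0.07 at its second probe. The tight junction gene Cldn5, the brightest, differed by 0.03, beside -0.08 for Gja4.

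Of 18 oligodendrocyte markers 15 were measured, 3 higher and 12 lower, with a median of -0.28 and summed levels of 662 and 596. The myelin genes Mal (-0.73) and Mobp (-0.61) were past 1.5-fold, and Mag differed by -0.47. Mobp was no longer past 1.5-fold with quantile normalization (-0.54) or among probes above the median (-0.56). The brightest, the transferrin gene, listed as Trf, differed by 0.30. Beside these, the probe of Gjb1, near the array median, differed by 0.05. Neuron markers were lower in 11 of 12 (median -0.19), with Nefl at -0.46, Camk2a at -0.35 and Slc17a7 at -0.34. Interneuron markers were lower in 10 of 11 measured (median -0.15), with Cck at -0.42, Kcnc1 at -0.34 and Vip at -0.33.

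Microglia markers were higher in 7 of 8 measured (median 0.48), and 3 passed 1.5-fold: Aif1 at 1.08, C1qb at 0.87 and Tyrobp at 0.69. Their summed level was 48.3 at 8 h and 85.9 at 24 h. Of the choroid plexus and ependyma list, 7 of 8 measured genes were higher (median 0.27), with summed levels of 11.8 and 38.8, or 6.70 and 8.64 without Ttr. Only Ttr of these stood at 1.5 times the median or more in both profiles, and differences of the dimmer probes are less reliable. Foxj1, the ependymal gene of the list, was not measured. No marker of any list was at 0. These values stand beside those of Gjb2 and Gjb6, and the part of these cells in the connexin differences was not tested.

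**Figure D4:**
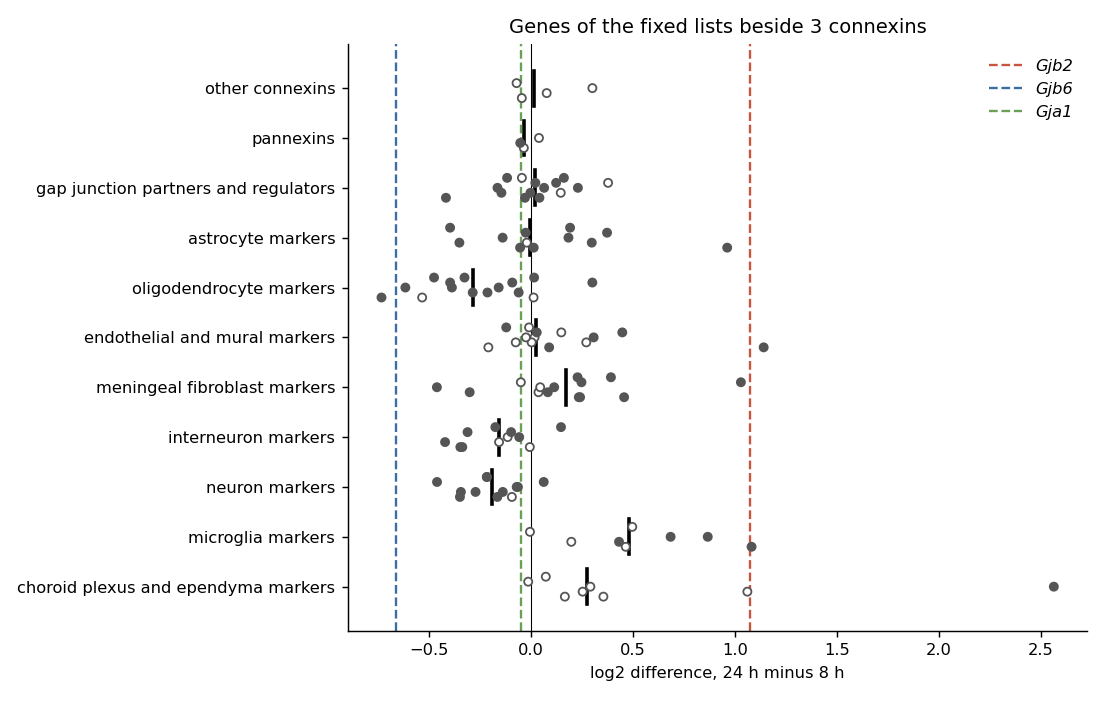
Log2 difference (24 h minus 8 h, x axis) of each measured gene of the 11 lists (y axis), with open circles for genes with a level under 1.5 at either time, black bars for list medians and dashed lines for Gjb2 (1.07), Gjb6 (-0.66) and Gja1 (-0.05). Gjb2 lies beside single genes of several lists, such as Tagln, Igfbp2, Aif1, Gfap and Sostdc1 (dim, 0.985 at 8 h), and Gjb6 beside Mobp and Mal.

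The named probes most like each member were those nearest in the pair of log2 levels, over 2 profiles, a measure that also reflects probe brightness. For Gjb2 these were Rxrg, a retinoid X receptor gene (3.42 and 6.44 times the median), Serping1, the complement C1 inhibitor gene (3.06 and 6.28), and Mcm6, a replicative helicase gene (3.29 and 6.17). For Gjb6 they were Lingo1, which encodes a Nogo receptor partner (47.6 and 30.7), Bnip3, a hypoxia-inducible mitochondrial gene (44.2 and 27.8), and Igf2 (42.8 and 31.1). For Gja1 they were Ppp2ca, Snurf and Dync1h1, and for Gja4 Pex2, Ccdc174 and Tmem165, all within 0.04 log2 of their member. The nearest to Gjb2 lay 0.11 away.

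**Figure D5:**
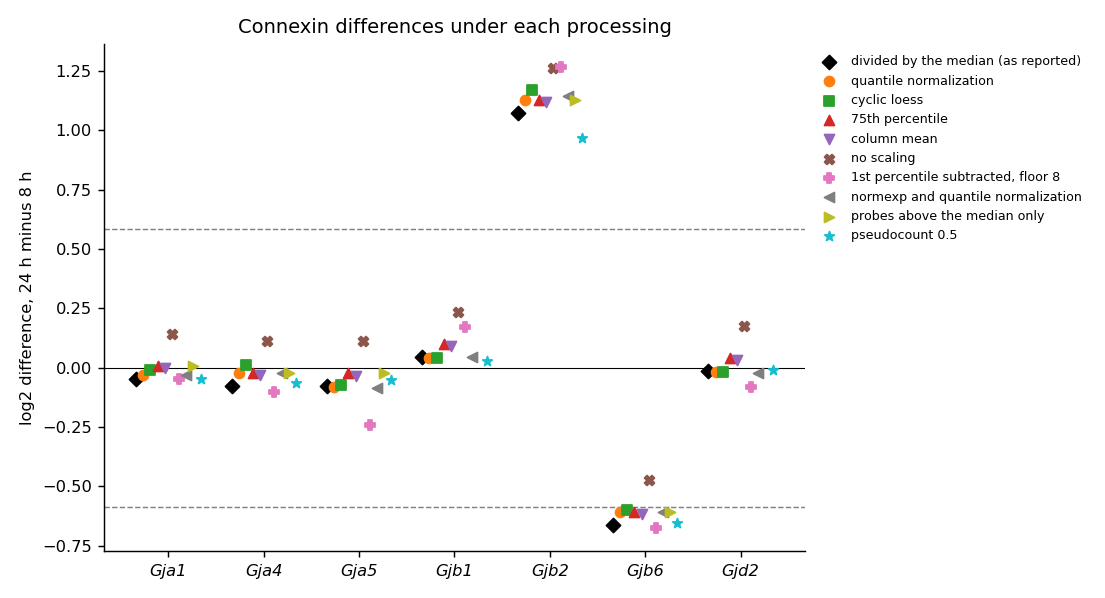
Log2 difference (24 h minus 8 h, y axis) of each connexin under the reported processing (black diamonds) and 9 others (coloured symbols), with dashed lines at 1.5-fold. Gjb2 stays between 0.97 and 1.27, Gjb6 between -0.67 and -0.47, and the other 5 between the dashed lines.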

How the data were processed

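The values were intensities on a linear scale, deposited by the authors as 1 table of 22523 probes with 1 column for each of 24 arrays. Their background correction, scaling and normalization are not given in the sources used here. In a table of non-normalized values 24 columns bear running numbers that match no sample label, and they entered no step. Groups and replicate numbers came from the sample titles. For vehicle arrays the descriptions give other replicate numbers.

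Columns were scaled by their medians, the 12 of each time point were averaged to 1 profile, and differences were taken as log2 of 24 h over 8 h. With 1 profile per time point there is no replicate error and no p-value. A difference of 1.5-fold was counted as a size. Symbols came from the platform annotation: 13793 probes had 1 symbol, 8730 none and 0 several, and 13752 matched the RefSeq gene table (GRCr8), with 0 symbols changed. For genes with more than 1 probe the brightest was used. The members and lists were chosen with earlier results of these data known. Named genes were all members, the measured connexins and pannexins, per list up to 3 genes with the largest difference at 1.5 times the median or more in both profiles and the brightest gene, and the 3 nearest probes of each member at 2 times the median or more.

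Alternatives were quantile normalization, cyclic loess, and normexp (offset 50) followed by quantile normalization, in limma 3.58.1 (R 4.3.3). Scaling to the 75th percentile or mean, no scaling, and taking off the 1st percentile (floor 8) were also used. So were probes above the median and a pseudocount of 0.5 on the level. Each array was left out in turn, and for the lists the probes of a gene were also averaged. Other steps used Python 3.11.15, numpy 2.4.6, pandas 2.3.3 and matplotlib 3.10.9, and were tested on simulated data. Motifs were searched in the 250 bases before each RefSeq start.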

Additional observations from a re-analysis of the deposited data

Results flagged for a closer look

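The treatment array of replicate 2 at 24 h stood apart from the other 3 arrays of its group, with a median intensity of 101. Every connexin probe carried the same gap, since the arrays of a time point differ only by a factor: Gjb2 read 682 there and 586 to 599 on the other 3. The 6 groups were examined, and chance marks about 1 group in 20. Division by the array median removed this gap from the levels.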

How the results depend on the processing

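Apart from leaving arrays out, 140 values were recomputed. Of these, 124 moved by less than 0.1 log2, or by no more than 1.5 times for a count, and 16 moved further. For lists with 1 probe for each measured gene, averaging the probes of a gene returns that same probe. Those values could not move and are counted among the 124. Without scaling, where 24 h arrays were brighter, the log2 differences were 0.14 for Gja1, 0.11 for Gja4, 0.11 for Gja5, 0.23 for Gjb1, 1.26 for Gjb2, -0.47 for Gjb6 and 0.18 for Gjd2, and 1 connexin in place of 2 was past 1.5-fold. Subtraction of the 1st percentile gave -0.24 for Gja5, 0.17 for Gjb1 and 1.27 for Gjb2, with 813 probes higher and 785 lower. A pseudocount of 0.5 gave 0.97 for Gjb2. Among probes above the median, 1 oligodendrocyte marker (Mal, without Mobp) was past 1.5-fold, as after quantile normalization, and the medians were 0.145 for endothelial and mural markers and 0.76 for choroid plexus and ependyma markers, with fewer members counted; Gjb1 and Gjd2 have no value there. Leaving out any array, 528 further values, could change no level or difference, because the arrays of a time point share 1 profile, so this shows nothing about the spread between animals. Ranks of levels stand in place of a rescaled level: Gjb2 was at percentile 76.3 and 85.6, Gjb6 at 97.8 and 96.4. No paired analysis was possible because no result comes from a test. Depth of signal over background is unknown, and values near the array median are least reliable.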
